A study of Paralichthys olivaceus with 6 samples.

Results

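The genes described are 5 transcription factors and kinases, grouped as regulators of pigment cell lineages and chosen by gene ID out of 22498 genes. They are the transcription factors MITF (GS_002043), PAX7 (GS_003876) and TBX19 (GS_014478), and the receptor tyrosine kinases KIT (GS_009046) and ALK (GS_006767). RNA-seq was done on ocular-side skin of the Japanese flounder, a flatfish. The fish were 3 normally pigmented (PO_con1, PO_con2 and PO_con3) and 3 albino (PO_alb1, PO_alb2 and PO_alb3). All 6 were full siblings of a single family and were 5 months old, and each gave its own library. Albino is a phenotype here, since the labels name no allele. A library held 17905084 to 20025047 reads counted to genes. The study selected the 5 genes from its own comparison of these libraries, so their direction is not independent evidence.

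Pigment cells of fish arise from the neural crest and divide into melanophores with melanin, xanthophores with pteridines and carotenoids, and iridophores with purine crystals. MITF is the master regulator of the melanocyte lineage, and zebrafish without a functional mitfa gene lack melanophores in the body. KIT receives the KIT ligand and supports the migration and survival of melanophore precursors in zebrafish and mouse, and it is also found on mast cells. PAX7 acts in the xanthophore lineage of zebrafish and in muscle stem cells of vertebrates. ALK works in the nervous system, and its close relative Ltk is needed for the iridophores of zebrafish. TBX19 is known from mouse and human as a factor of the corticotroph cells of the pituitary.

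The study's tables name the genes by their matches to mouse MITF, PAX7 and ALK, dog TBX19, and pufferfish KIT or zebrafish kita. The RefSeq gene table for the flounder holds the symbols mitfa, kita, kitb, pax7a, alk, ltk and tbx19, but none of the gene IDs is paired with it. Whether KIT is kita or kitb, and whether ALK is alk or ltk, was therefore not settled. The counts and the RPKM together gave the length of each gene model, which was the same in every library. It was 1050 bases for MITF, 2232 for KIT, 1131 for PAX7, 3915 for ALK and 1314 for TBX19. These are coding lengths, because 20120 of the 20121 known genes with a length had one that is a multiple of 3. They correspond to 350 codons for MITF, 744 for KIT, 377 for PAX7, 1305 for ALK and 438 for TBX19.

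In albino skin 3 of the 4 members tested, MITF, KIT and ALK, fell, while PAX7 did not pass the test and TBX19 had too few counts for it. The test was edgeR's quasi-likelihood test on the counts, with Benjamini-Hochberg adjustment over 16260 genes and a threshold of 0.05. Of these genes 0.910% were called lower and 0.129% higher. Nothing is read from the members' count against that share, because the study chose them from the same contrast. In each of the 5 genes every albino fish lay below every normal fish, as in 7.47% of the genes tested. An exact two-sided permutation test of 3 fish against 3 gave p = 0.1 for each gene, the smallest value it can give. In bulk skin, fewer cells of a type and less RNA per cell cannot be told apart. Levels below are counts normalized by TMM (trimmed mean of M-values) to the mean library total, each with its SD among fish.

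**Figure D1:**
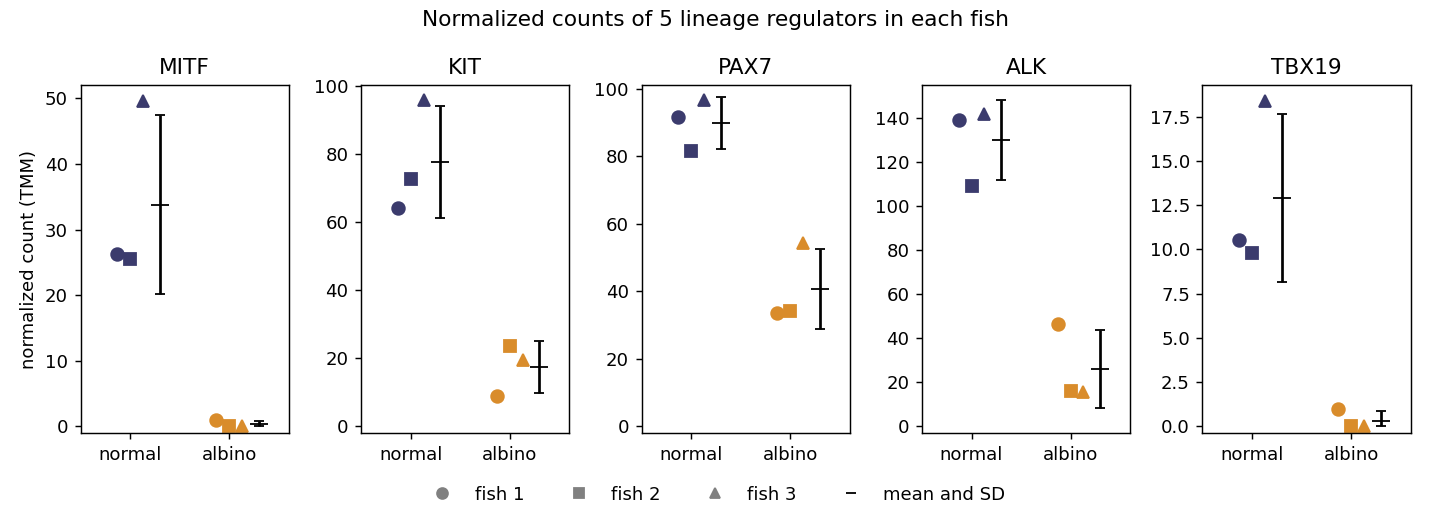
Normalized counts (linear axis, 1 panel a gene) of the 3 normal and 3 albino fish, with the group mean and SD beside the points; lower SD bars stop at 0. The sources do not say whether the fish numbers pair fish between the groups. All 5 genes show albino values below all normal values, with MITF and TBX19 at or near 0 in albino fish.

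MITF and TBX19 each had a single read over the 3 albino fish. For MITF, PO_con1 had 25 reads, PO_con2 had 26 and PO_con3 had 62, against 1 in PO_alb1, 0 in PO_alb2 and 0 in PO_alb3. By reads, PO_con3 had more than the other 2 normal fish together, and no albino fish had more than a single read. Normal fish averaged 33.8 ± 13.7 normalized counts and albino fish 0.330 ± 0.571 (SD, n = 3 each). At the mean level of the normal fish, 35.6 reads would have been counted in PO_alb2 and 26.1 in PO_alb3. A count of 0 allows up to 3 reads, a normalized count of 2.85 in PO_alb2 and 3.88 in PO_alb3. Over the group, 113 reads stood against 1, a ratio of 99.6 with an interval of 17.5 to 3967 (95%, Clopper-Pearson), which covers counting error only. The adjusted p from edgeR was 0.0086. MITF entered the test through the normal libraries alone.

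MITF stayed called by edgeR without each library in turn, with an adjusted p of 0.020 to 0.048. These fits reuse the libraries from which the study chose MITF, so they are not independent support. In the fit without PO_alb1 no albino read is left, and the fitted size depends on the prior count of the model. Without PO_alb1, the fish with the only read, MITF was 21.4-fold lower in albino when the group was set to a bound of 3 reads. This leaves out the counting error of the normal reads. The ratio of reads was 62.6 without PO_alb2 (interval 11.01 to 2495), 72.5 without PO_alb3 and 73.5 without PO_con3.

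TBX19 followed the same fish at a lower depth. It had 10 reads in PO_con1, 10 in PO_con2 and 23 in PO_con3, against 1 in PO_alb1 and none in PO_alb2 or PO_alb3. PO_con3 was again the highest normal fish, and PO_alb1 again the only albino fish with a read. Normal fish averaged 12.9 ± 4.75 normalized counts and albino fish 0.330 ± 0.571 (SD, n = 3 each). At the normal mean, 13.6 reads would have been counted in PO_alb2 and 9.97 in PO_alb3. The 43 reads against 1 gave 37.9-fold more in normal fish, and counting error alone allows 6.45 to 1531. Without PO_alb1, TBX19 was 8.13-fold lower when the group was set to a bound of 3 reads, again without the counting error of the normal reads. Without PO_alb2 the ratio was 23.8, with a counting interval from 4.05 to 963.

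The filter decided whether TBX19 was tested. It was left out by the rule used here, and it was kept when all genes with a read were fitted or when 10 reads in 3 libraries were required. In those fits its adjusted p from edgeR was 0.034 and 0.042, where 0.798% and 0.936% of the genes tested were called lower. The rule of 10 reads in 3 libraries was met through the normal fish alone, as for MITF. With 1 library left out, TBX19 passed the filter only without PO_alb1 or PO_alb3, and it was not called there (adjusted p = 0.13 and 0.16).

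KIT fell and kept reads in every albino fish. It had 61, 74 and 120 reads in PO_con1, PO_con2 and PO_con3, and 9, 25 and 15 in PO_alb1, PO_alb2 and PO_alb3. The lowest normal fish was 2.71-fold above the highest albino fish after scaling. Normal fish averaged 77.6 ± 16.4 normalized counts and albino fish 17.4 ± 7.64 (SD, n = 3 each). The log2 fold change was -2.16 (SE 0.35, 95% interval -2.98 to -1.34, edgeR adjusted p = 0.037), a 4.47-fold lower level. The call was lost without any 1 of the 6 libraries (adjusted p = 0.061 to 0.17), where the test also had fewer fish.

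ALK had the most reads of the members in normal fish, and among albino fish the largest coefficient of variation of the 3 members with reads in all of them. PO_con1 had 132 reads, PO_con2 had 111 and PO_con3 had 177. Of the albino fish, PO_alb1 had 47 reads, and the other fish had 17 (PO_alb2) and 12 (PO_alb3). PO_alb1 thus stood above the other albino fish, though still 2.34-fold below the lowest normal fish after scaling. Normal fish averaged 130 ± 18.1 normalized counts and albino fish 26.1 ± 17.7 (SD, n = 3 each). The log2 fold change was -2.29 (SE 0.40, 95% interval -3.21 to -1.37, edgeR adjusted p = 0.045). Without PO_alb1 it was -3.02 with an adjusted p of 0.0046. Without any other single library, the call was lost (adjusted p = 0.11 to 0.17).

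PAX7 had the difference closest to 0 of the 4 members tested. It had 87, 83 and 121 reads in PO_con1, PO_con2 and PO_con3, and 34, 36 and 42 in PO_alb1, PO_alb2 and PO_alb3. Normal fish averaged 89.9 ± 7.76 normalized counts and albino fish 40.7 ± 11.8 (SD, n = 3 each). The groups did not overlap, with the lowest normal fish 1.50-fold above the highest albino fish. The log2 fold change was -1.16 (SE 0.24, 95% interval -1.71 to -0.60), which did not pass edgeR's test (adjusted p = 0.10). The unadjusted p was 0.00136, and 1279 genes had one under 0.05. DESeq2 called PAX7 (adjusted p = 0.0065), where 1.69% of the genes tested were called lower.

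**Figure D2:**
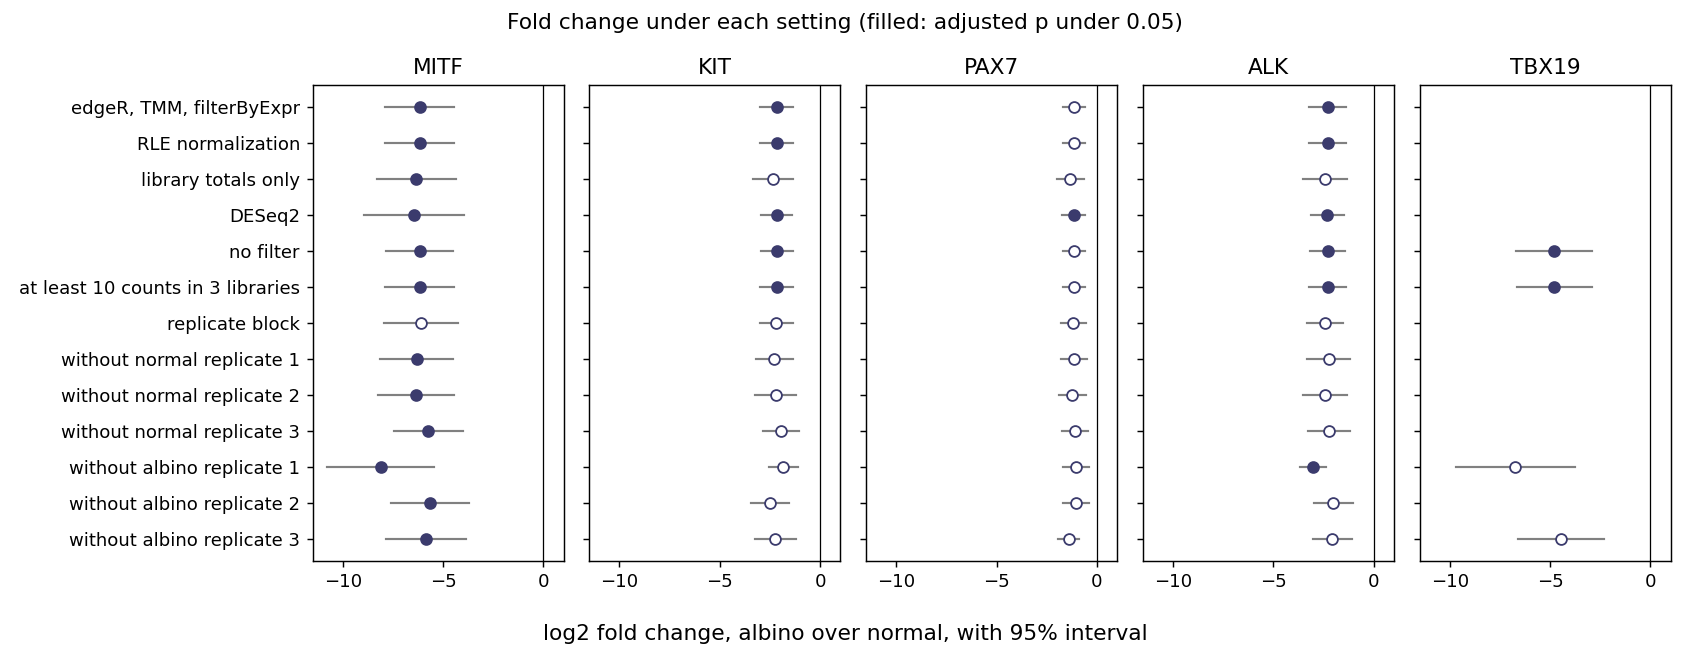
Log2 fold change of albino over normal fish with its 95% interval for each gene (panels) under each setting (rows), except limma, which is not drawn. Filled points have an adjusted p under 0.05, and missing points were not tested. The edgeR intervals were built from the log2 fold change, its F statistic and a t quantile, and those of DESeq2 from the normal approximation. For MITF the first row spans 22.1- to 234.5-fold, narrower than counting error alone (17.5 to 3967), so its drawn intervals understate the uncertainty. With the replicate number as a block 0.326% of genes were called lower, and fitted values of MITF and TBX19 depend on the prior count of the model. MITF is filled in all rows except the replicate block, and PAX7 only with DESeq2.

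The normal fish differed among themselves in a shared way. PO_con3 had the highest value of all 5 members, in reads, in normalized counts and in RPKM, and 38.0% of all genes tested were also highest there after scaling. The same fish was highest for all 6 xanthophore genes, 8 of 10 melanophore genes, 5 of 6 other lineage regulators and all 3 keratin genes of the lists described further on, while all 4 muscle markers were highest in PO_con1. Being highest in PO_con3 is thus not particular to the members. The normalized counts varied least for PAX7, with a coefficient of variation of 8.63%, and for ALK, with 14.0%. It was 21.2% for KIT, 36.8% for TBX19 and 40.4% for MITF. The highest normal fish thus exceeded the lowest by 1.19-fold for PAX7 and by 1.94-fold for MITF.

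The albino fish did not share 1 order. MITF, ALK and TBX19 were highest in PO_alb1, KIT in PO_alb2 and PAX7 in PO_alb3. KIT was lowest in the fish in which ALK was highest, with normalized counts of 8.90 for KIT and 46.5 for ALK in PO_alb1, against 23.8 and 16.2 in PO_alb2. On the log2 scale KIT to ALK stood at -2.17 in PO_alb1, 0.51 in PO_alb2 and 0.29 in PO_alb3, against -1.09 to -0.55 in normal fish. The albino range therefore spanned the normal range. The coefficient of variation in albino fish was 67.9% for ALK, 44.0% for KIT and 29% for PAX7.

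Whether members fell unequally was tested on the log2 ratio of each pair within a library, with 0.1 CPM added (CPM, reads scaled by the library total and TMM). All 10 pairs were compared by an exact two-sided permutation test, which cannot go below p = 0.1, or 0.2 when adjusted over the pairs. In 5 pairs, each with MITF or TBX19, the ratios of albino and normal fish did not overlap. The share among pairs of other genes was not computed, so nothing is read from this count. For MITF to PAX7, normal fish averaged -1.43 ± 0.425 and albino fish -4.28 ± 0.641 (SD, n = 3 each), a difference of -2.86 (exact p = 0.1). The difference was -1.88 for MITF to KIT, -1.59 for MITF to ALK and -1.25 for MITF to TBX19, and 1.60 for PAX7 to TBX19. These sizes depend on the value added, because MITF and TBX19 were at 0 in 2 albino fish. With 0.5 CPM added, the difference was -1.11 for MITF to PAX7 and -0.93 for MITF to TBX19, both without overlap. It was -0.39 for MITF to KIT, -0.05 for MITF to ALK and 0.18 for PAX7 to TBX19, all with overlap. The MITF to TBX19 ratio was 0.00 in every albino fish, because both genes had the same reads there, so its difference rests on the normal fish. KIT to PAX7 (-0.98, exact p = 0.2), KIT to ALK (0.28, exact p = 0.9) and PAX7 to ALK (1.26, exact p = 0.2) overlapped. The ratio of PAX7 to ALK was -0.59 to -0.41 in normal fish and -0.45 to 1.69 in albino fish, and it had no overlap with 0.5 CPM added.

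Levels between genes were compared per length, as the authors' RPKM, which divides reads by gene length and by the library total. PAX7 had the highest RPKM of the members in all 6 libraries. In normal fish the RPKM was 3.84 to 5.87 for PAX7, 1.36 to 2.95 for KIT, 1.19 to 3.24 for MITF, 1.55 to 2.48 for ALK and 0.380 to 0.960 for TBX19. KIT, MITF and ALK overlapped, while PAX7 above them and TBX19 below them did not. The mean RPKM of PAX7 in normal fish, 4.57 ± 1.13 (SD, n = 3), lay at the 51.1 percentile of the genes with reads, that of KIT at 35.7 and that of TBX19 at 23.

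In albino fish the members with reads in all 3 fish were PAX7, with an RPKM of 1.68 to 2.05, KIT with 0.225 to 0.601 and ALK with 0.169 to 0.670. KIT and ALK overlapped, and PAX7 lay above both. MITF had an RPKM of 0.0532 and TBX19 of 0.0425 in PO_alb1, and both were listed at 0 in PO_alb2 and PO_alb3. MITF and ALK overlapped in normal skin, whereas in albino skin the lowest ALK value lay above the highest MITF value. That order rests on 1 MITF read. A count of 0 allows MITF an RPKM of up to 0.153 in PO_alb2 and 0.158 in PO_alb3, close to the lowest ALK value.

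**Figure D3:**
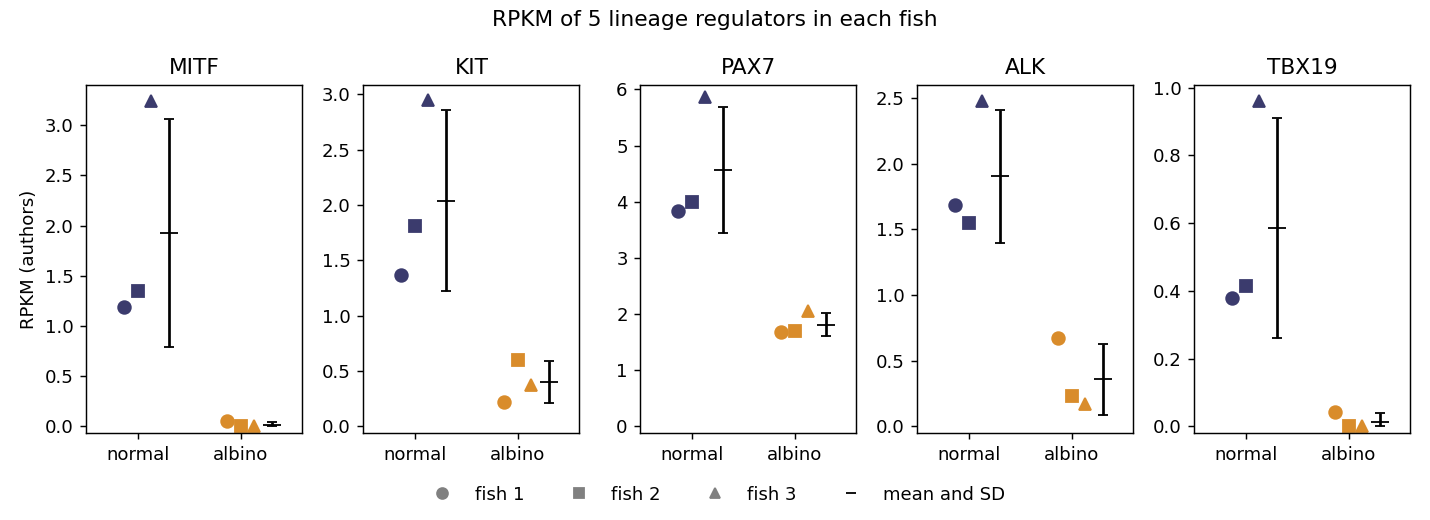
RPKM of the authors (linear axis, 1 panel a gene) in the 3 normal and 3 albino fish, with the group mean and SD beside the points; lower SD bars stop at 0. PO_con3 is the highest normal fish in every panel, and PAX7 keeps an RPKM of 1.68 to 2.05 in albino fish.

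The genes whose profiles over the 6 libraries were most like a member were ranked by Pearson's r of log2 CPM. The points share the division into 2 groups, so r is a description and says nothing of the size of a change or of regulation. Each r is among the highest of 16260 genes over 6 libraries, so a high value by itself carries little weight. For MITF they were GS_002427 (r = 0.9995), SOX10 (r = 0.9984) and SLC41A2 (r = 0.9979). The albino values of MITF were set mostly by the added 0.1 CPM, since it had 1 read there. SOX10, the neural crest factor that activates MITF in mouse and zebrafish, had a log2 fold change of -1.73, while GS_002427 had one of only -0.51 (edgeR adjusted p = 0.18). For TBX19 the nearest gene was MITF (r = 0.9984), followed by FMN2, a formin (r = 0.9978), and GS_002427 (r = 0.9970). MITF and TBX19 had the same read counts in all 3 albino fish, 1 in PO_alb1 and 0 in the others, so this likeness rests on few reads.

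For KIT the nearest genes were the GABA transporter SLC6A13 (r = 0.9954), GS_002521 (r = 0.9914) and the orphan receptor GPR21 (r = 0.9893). For PAX7 they were the carbonic anhydrase CA6 (r = 0.9943), GS_007300 (r = 0.9933) and PLIN2 GS_005047 (r = 0.9918). For ALK they were GS_018701 (r = 0.9952), the melanin enzyme gene TYRP1 GS_009038 (r = 0.9939) and GS_002475 (r = 0.9932). TYRP1 GS_009038 shared with ALK the high value in PO_alb1. Its normalized count there was 22.7, against 2.85 in PO_alb2 and 2.59 in PO_alb3. Other melanin enzyme genes did not share it, since TYRP1 GS_012029 was highest in PO_alb3 (14.2, against 9.88 in PO_alb1) and TYR had 0 in PO_alb1 and 3.88 in PO_alb3.

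The members were set beside lists of other genes named in the study, which were also its own choice on these libraries. Of 6 other regulators of pigment cell lineages, 4 fell and 2 did not pass edgeR's test, with a median log2 fold change of -1.67, against 0.01 over all genes tested. SOX10 fell from 274 ± 39.7 to 82.1 ± 6.0 normalized counts (SD, n = 3 each, edgeR adjusted p = 0.0027). PRDM1, a zinc finger factor of neural crest cells in zebrafish, fell by 1.64 on the log2 scale (edgeR adjusted p = 0.019). The melanocortin receptor MC1R differed by -2.70 without passing (edgeR adjusted p = 0.094). All 6 regulators were highest in PO_alb1 among the albino fish. The share of all genes highest in that fish was not computed, so nothing is read from this count. SOX10 had normalized counts of 89.0 in PO_alb1, 79.8 in PO_alb2 and 77.7 in PO_alb3, so it kept many reads in the fish where MITF had 0.

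The lists of genes used by differentiated pigment cells had these counts. Of 10 melanophore genes, 8 fell and 2 did not pass, with a median log2 fold change of -4.03 and none of the 10 was at 0 over the albino fish. All 6 pteridine genes of xanthophores fell, with a median of -7.91, or -7.74 with the gene at 0 in albino fish set to its bound. PNP, a purine enzyme that serves iridophores in zebrafish, did not pass, at -2.16 on the log2 scale (SE 0.41, edgeR adjusted p = 0.064). PNP had 25 reads over the albino fish and was highest in PO_alb1, with 14.8 against 4.75 and 6.47. ALK, MITF, TBX19 and all 6 other lineage regulators were also highest there, so this order is not particular to PNP and ALK. Of the 10 melanophore genes, 5 were highest in PO_alb1, 3 in PO_alb3 and 2 in PO_alb2, so they followed no single member among the albino fish. No test of these orders was made.

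**Figure D4:**
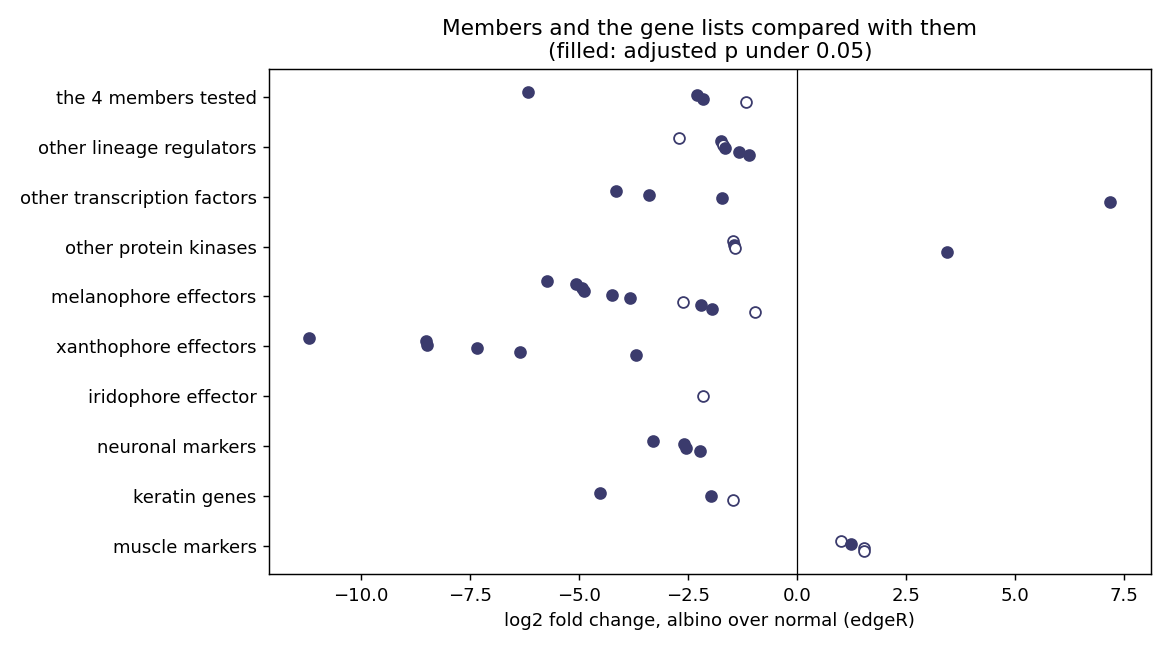
Log2 fold change of albino over normal fish (edgeR) for each tested gene of the members and of the lists beside them; filled points have an adjusted p under 0.05. The 4 members tested lie between -6.17 and -1.16, the 5 xanthophore genes with albino reads between -8.50 and -3.69, and the muscle markers above 0. The lowest xanthophore point has 0 albino reads, so its place depends on the prior count of the model.

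Genes of other cell types, taken from those the study named, also differed between the groups. This follows from their choice, since the study had called them different in these same libraries. PAX7 also marks muscle stem cells, and the 4 muscle markers had log2 fold changes of 1.01 to 1.55, on the other side of 0 from PAX7. Their summed level was 662 to 1333 CPM in normal and 1812 to 2570 in albino fish, 1 of 4 was called higher, and none was at 0 in any group. DES made up most of this sum, with a mean of 38470 normalized counts in albino fish, and did not pass edgeR's test (adjusted p = 0.33). The gene called higher was METTL21C, with a mean of 723.5 there (edgeR adjusted p = 0.037). ALK also works in neurons, and 4 of the 5 neuronal genes listed fell while NSG2 was not tested. The 5 summed to 8.64 to 12.9 CPM in normal and 1.87 to 2.24 in albino fish. The study also called neuronal genes higher in albino fish, among them SLC32A1, GRM3 and DSCAM. The 5 listed thus do not stand for all neuronal genes. The 3 keratin genes are genes of epithelium, and the study also lists them among its pigmentation genes. They summed to 1266 to 2154 CPM in normal and 447 to 735 CPM in albino fish, and 2 of them fell. KRT13 GS_014679 made up most of this sum and did not pass edgeR's test (log2 fold change -1.47, adjusted p = 0.076). The log2 fold change was -4.52 for KRT18 and -1.96 for KRT13 GS_018838. None of the neuronal or keratin genes was at 0 in a group. The part of muscle, nerve and epithelium in the members' results was not tested.

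Together the members held few reads. They took 304 to 503 reads of a normal library and 69 to 92 reads of an albino library. PO_con3 held 503 of them, and TMM scaled it down, with a factor of 1.27 against 0.879 in PO_con1. When libraries were scaled by their totals alone, MITF was the only member called by edgeR (adjusted p = 0.0098), and KIT and ALK were not (0.065 and 0.082), while 0.609% of the genes tested were called lower. With limma on log2(RPKM + 1), where 0.547% were called lower, MITF was again the only member called (adjusted p = 0.032). The direction of all 5 genes was the same under TMM, RLE and library totals.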

How the data were processed

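The authors used TopHat2 2.0.9 with Bowtie2 2.0.6 to align read pairs to a flounder assembly, Cufflinks 2.1.1 for transcripts and HTSeq for gene counts. They deposited raw read counts, and RPKM that the authors calculated from the counts, the gene length and the column total. The strand setting is not given in the sources used here, so overlapping antisense reads cannot be told apart. The study's small RNA libraries were not analysed here. For those, the study reported that PO_alb1 correlated poorly with the other albino samples, and it left out PO_alb1 and PO_con1. Whether this bears on the RNA-seq values of PO_alb1 was not tested.

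Albino and normal fish were compared on the counts in R 4.3.3 with edgeR 4.0.16 (filterByExpr, TMM, quasi-likelihood test, Benjamini-Hochberg adjustment over all genes kept). That test gives no SE or interval, so both were derived from the log2 fold change and its F statistic. Alternatives were RLE, library totals, DESeq2 1.42.0, other filters, limma 3.58.1 on log2(RPKM + 1), a block for the replicate number, and fits without each library in turn. The test was checked on simulated data. There edgeR recovered 53.7% of the genes with a log2 change of 1, 96.9% with 2 and 100% with 4. It also called 10 unchanged genes. The shares recovered are over genes drawn at random, each simulated with the spread usual at its level. Genes with a wider spread of their own were not simulated, so the shares do not hold for the level and spread of any member. Whether a change of the size seen for PAX7 was missed was not tested. Replicates are separate fish. The members and lists were chosen with earlier results of these data known. The genes named are the members, examples of the lists, and the 3 genes most like each member. Names come from the study's tables, and 0 of 22498 IDs matched the RefSeq table. Python 3.11.15 and matplotlib 3.10.9 made the plots.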

Additional observations from a re-analysis of the deposited data

How the results depend on the processing

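No result reversed its direction except log-ratios of pairs. With 1 albino read each, the size of the difference of MITF and TBX19 has a wide counting interval. Of the 4 members tested 3 were called lower, against 1 with library totals alone, 1 with limma on log2(RPKM + 1), 4 with DESeq2 and 1 to 2 with a library left out. KIT had a log2 fold change of -2.34 with library totals and -2.49 to -1.83 with a library left out, and ALK of -2.41 and -3.02 to -2.02. With limma the difference in log2(RPKM + 1) was -1.09 for KIT and -1.10 for ALK. The added 1 shrinks such differences at low RPKM, so their size cannot be set against the log2 fold changes. All of these were without a call except ALK without PO_alb1. PAX7 was called with DESeq2 at -1.16. With the replicate number as a block, 0 members were called by edgeR, although all 4 had an unadjusted p under 0.05. There the log2 fold change was -6.09 for MITF (adjusted p = 0.054), -2.19 for KIT and -2.42 for ALK, and 53 genes were lower and 4 higher. Whether the numbers pair the fish is not stated in the sources used here. Deviations of same-numbered libraries from their group means correlated at -0.169, 0.181 and -0.442, and PO_con1 correlated best with PO_alb3 (0.428). Deviations within a group of 3 are tied to each other, so these values do not settle it. Over all genes, 148 were lower and 21 higher, against 274 and 90 with DESeq2, 89 and 7 with limma, 99 and 7 with library totals, and 67 to 138 and 2 to 14 with a library left out. With 0.5 CPM added, the difference turned to -0.54 for KIT to TBX19 and to -0.89 for ALK to TBX19. That of KIT to ALK ranged from -0.20 to 1.14 with a library left out, and turned to -0.20 without PO_alb2 and to -0.09 without PO_alb3. The cause of these changes was not tested.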

Other observations

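Among 4 other transcription factors named in the study, SIX3 (log2 fold change -4.16, adjusted p = 0.043), POU2F3 (-3.40, 0.011) and FOXD2 (-1.72, 0.040) fell by edgeR's test, and NKX1-1 rose. NKX1-1 had 0 reads in normal and 51 in albino fish (adjusted p = 0.027), the reverse of the pattern of MITF and TBX19. SIX3 and POU2F3 kept 8 and 12 reads in albino fish, where MITF and TBX19 had 1 each. Among 4 other protein kinases, STK17A fell (-1.45, adjusted p = 0.013), CAMK1G rose (3.44, adjusted p = 0.0027), and FYN (-1.45, 0.12) and CDK15 (-1.42, 0.058) did not pass. KIT and ALK lay below all 4 of these kinases in log2 fold change. These genes were the study's choice from the same libraries.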
